A study of Drosophila melanogaster with 4 samples.

Results

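The deposited list of Pipsqueak binding sites in white prepupae of Drosophila melanogaster holds 1661 peaks. Of these, 331 peaks, 19.9%, lie on 3L, the left arm of the third chromosome, and they are described here. A peak belongs to this set when the list places it on 3L, and the rule uses no measured score or width, although the arm was picked for description with earlier results of these data known. White prepupae are animals that have just stopped moving and begun metamorphosis. The study immunoprecipitated chromatin from such animals in 2 libraries and sequenced input DNA, which is total chromatin without the antibody step, in 2 others. The authors deposited a single peak list for the whole series, so no value below has a replicate or a spread between animals, and the depth of each library is unknown. Nothing in the labels says whether the replicates came from separate collections of animals.

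Both groups share the strain Y cn bw sp, the stage and the genotype. The labels give the genotype as y[1] with oc[R3.2], then cn[1], bw[1] and sp[1], and further the alleles Gr22b[1] and Gr22d[1], CG33964[R4.2], LysC[1] and lab[R4.2], MstProx[1], and GstD5[1] together with Rh6[1]. The antibody, KW3-psq-D2, was a rabbit polyclonal raised against a stretch of Pipsqueak. Material was collected as prepupae, with no tissue named, so a peak may come from some tissues and not others.

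Pipsqueak is a nuclear protein with a BTB domain, through which such proteins associate with each other, and with Psq-type helix-turn-helix domains that bind DNA. It is known to recognise GAGA-rich sequence, the same kind of element that the GAGA factor Trithorax-like binds. In flies it has been tied to Polycomb and Trithorax group regulation, which keeps developmental genes off or on, and it is needed in oogenesis, embryonic patterning and eye development. Positions below are on FlyBase release 5. No genome sequence or annotation of that release was used, so no base sequence is printed, and whether a peak lies in a promoter, exon or intron was not analysed here.

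The 3L peaks ran from position 40090 to 22864846, a span of 22.8 Mb. They covered 232 kb, which is 1.02% of that span. Peak widths had a median of 411 bp and quartiles of 280.5 and 841 bp. The score, the number that the authors' peak caller gave to each peak, had a median of 13.83 and ran from 6.16 to 205.68. Low scores were common: 74 peaks scored below 10, while 38, or 11.5%, scored above 50. A score above 100 was reached by 17 peaks.

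The strongest site on the arm was a lone peak at 13995104 to 14000145, 5042 bp wide, with a score of 205.68. It stood at the edge of the longest peak-free stretch between adjacent 3L peaks, 1152 kb before it, and the next peak came 24.8 kb after it. The second, at 12797172 to 12800424, scored 197.44 and bordered the other end of that region: after it came a companion in its own group and then 1 lone peak with a score of 12.25, at 12842714 to 12843198, before the long stretch began. The following 2 lay far from these and from each other, at 2631452 to 2636820 with a score of 169.06 and at 20509135 to 20513239 with a score of 167.21. The highest scores were thus spread along the arm and not gathered in 1 place.

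The next 8 peaks by score held values from 146.09 down to 108.82. A peak at 6488168 to 6489933, with a score of 146.09, lay alone between 275 kb and 245 kb of peak-free sequence. Peaks at 4101133 to 4104015 (141.94) and 11357104 to 11359184 (139.27) each had 1 companion. The peak at 9357892 to 9361839 (128.91) closed a group of 4, and that at 10508852 to 10511088 (120.42) followed 660 kb without a peak. The peak at 11085050 to 11087028 (116.23) lay inside a group of 7. The peak at 2822741 to 2825897 (114.57) lay inside the largest group of the arm, and the peak at 15996488 to 15998488 (108.82) in a group of 4.

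The remaining 8 of the 20 strongest scored between 106.38 and 89.77. They include the widest peak of 3L, a lone one at 20391710 to 20398052, 6343 bp wide with a score of 106.38. A lone peak at 1801945 to 1803766, with a score of 106.23, had 232 kb free of peaks before it and 747 kb after it. Peaks at 2765164 to 2767353 and 19901933 to 19903581 had the same score, 104.76. The last 4 were at 9756483 to 9758147 (103.95), 130394 to 131701 (93.65), 21232999 to 21233490 (91.31) and 3336927 to 3338686 (89.77). The peak just outside the 20, at 12139344 to 12141979, scored 87.47, so no gap in score sets the 20 apart. Together the 20 made up 6.04% of the 3L peaks and 23.7% of the bases that peaks covered.

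**Figure D1:**
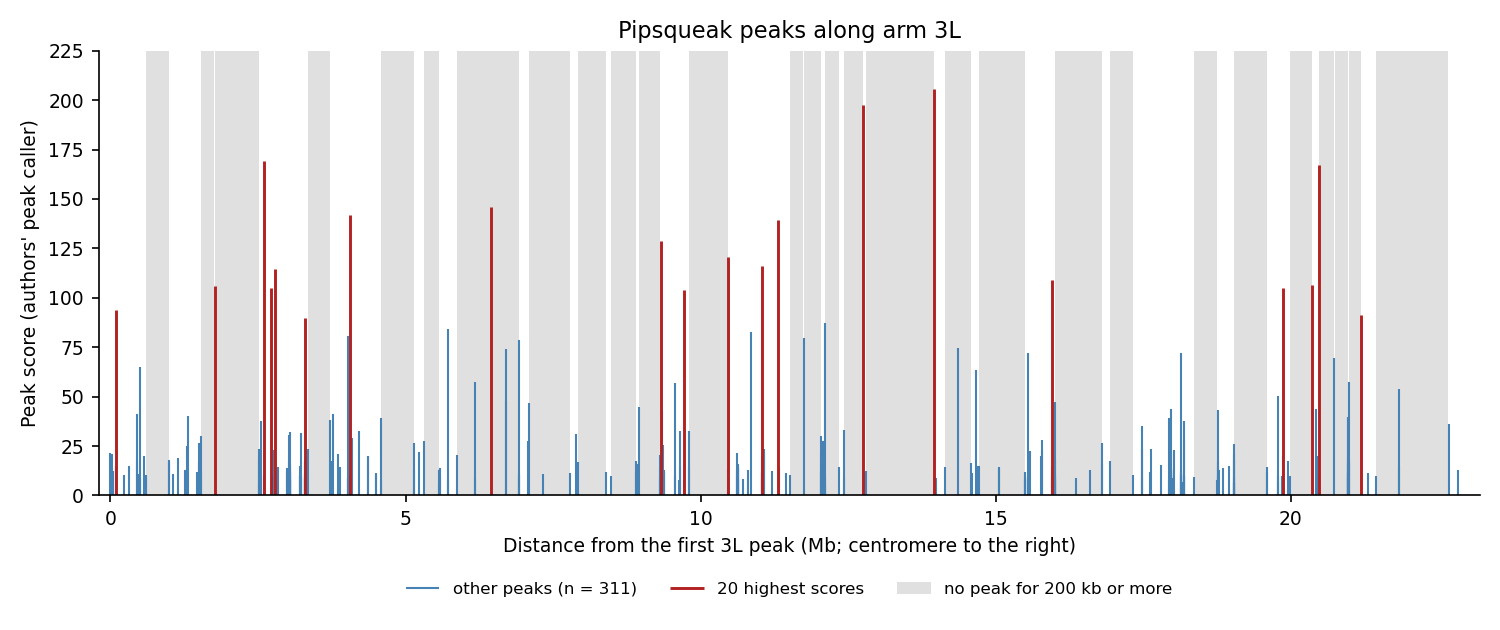
Each vertical line is 1 of the 331 peaks on 3L, placed by its distance from the first peak of the arm in Mb, with the score from the authors' peak caller as its height. The 20 highest scores, drawn in red, run from 89.77 to 205.68 and are spread along the arm. Grey marks the 37 stretches of 200 kb or more between adjacent peaks.

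Wide peaks carried the high scores. The 83 narrowest peaks, 201 to 280 bp, had a median score of 9.55 and none above 20.41. The 83 widest, 842 bp and over, had a median of 41.4 and a range from 11.49 to 205.68, and they held 60.2% of the covered bases. The 10 widest peaks were at least 2636 bp wide, and the lowest score among them was 84.47. Of these 10, 8 were also among the 20 strongest. Beside those already named they were the peaks at 5761466 to 5764265, 2800 bp wide with a score of 84.47, and at 12139344 to 12141979, 2636 bp wide. On log2 scales the widths and scores of the 331 peaks had a Pearson's r of 0.84, and their ranks a Spearman's rho of 0.79. This is a description over peaks that share the same libraries and the same peak caller, which sets both values.

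**Figure D2:**
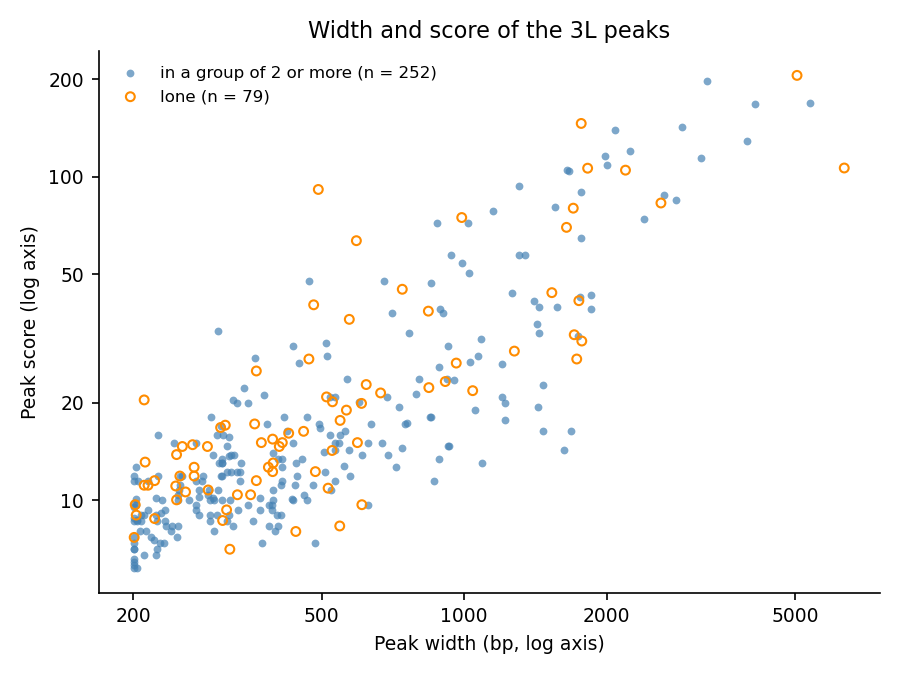
Each point is 1 peak on 3L, with its width in bp and its score on log axes, filled for the 252 peaks in groups and open for the 79 lone ones. Scores rise with width, from a median of 9.55 in the 83 narrowest peaks to 41.4 in the 83 widest, and the open point at 492 bp with a score of 91.31 lies above the other peaks of 500 bp or less, which reach 47.53.

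Peaks on 3L came in 147 groups when those 10 kb or less apart were joined. Of the groups, 79 were lone peaks, 32 were pairs, 22 held 3 or 4 peaks and 14 held 5 or more. The 14 large groups held 115 peaks, 34.7% of the arm's total. Of the 330 gaps between adjacent peaks, 123, or 37.3%, did not exceed 1 kb, down to the smallest of 45 bp. In 30 of the 68 groups of 2 or more, every gap was that short, so these groups are also single regions under the narrower limit of 1 kb.

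The largest group held 17 peaks over 36.7 kb at 2799242 to 2835924. Its strongest peak, the one with a score of 114.57, was 3157 bp wide. The other 16 scored between 7.05 and 22.77, and peaks covered 27.7% of the group. A group of 13 at 17999947 to 18012381 was denser, with 52.6% of its 12.4 kb covered and no gap above 1685 bp. Its highest score was 43.8 and its second highest 20.85.

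The group of 11 peaks at 3059660 to 3081159 had a pair of nearly equal leading peaks, with scores of 32.14 and 30.61. The group of 10 at 20999546 to 21020600 had a highest score of 57.28, then 2 peaks at 39.58 and the next at 19.45, with a median of 17.2. It was also isolated, with 220 kb before it and 212 kb after it free of peaks. A group of 9 at 10653493 to 10675700 was the sparsest of these 5, with 16.8% of its 22.2 kb covered. It also had the lowest top score, 21.32. Its median score was 13.03, against 13.43, 11.12, 13.03 and 17.2 in the groups of 17, 13, 11 and 10.

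Groups of 7 occurred 4 times. That at 3336341 to 3342610 had 65.5% of its 6.27 kb covered and a highest score of 89.77. That at 11076396 to 11090221 had a highest score of 116.23 and a second of 19.91. The other 2, at 3781637 to 3787717 and 18805316 to 18816123, reached 17.2 and 43.19. A group's number of peaks therefore did not fix the height of its strongest peak: the groups of 7 alone ran from 17.2 to 116.23.

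**Figure D3:**
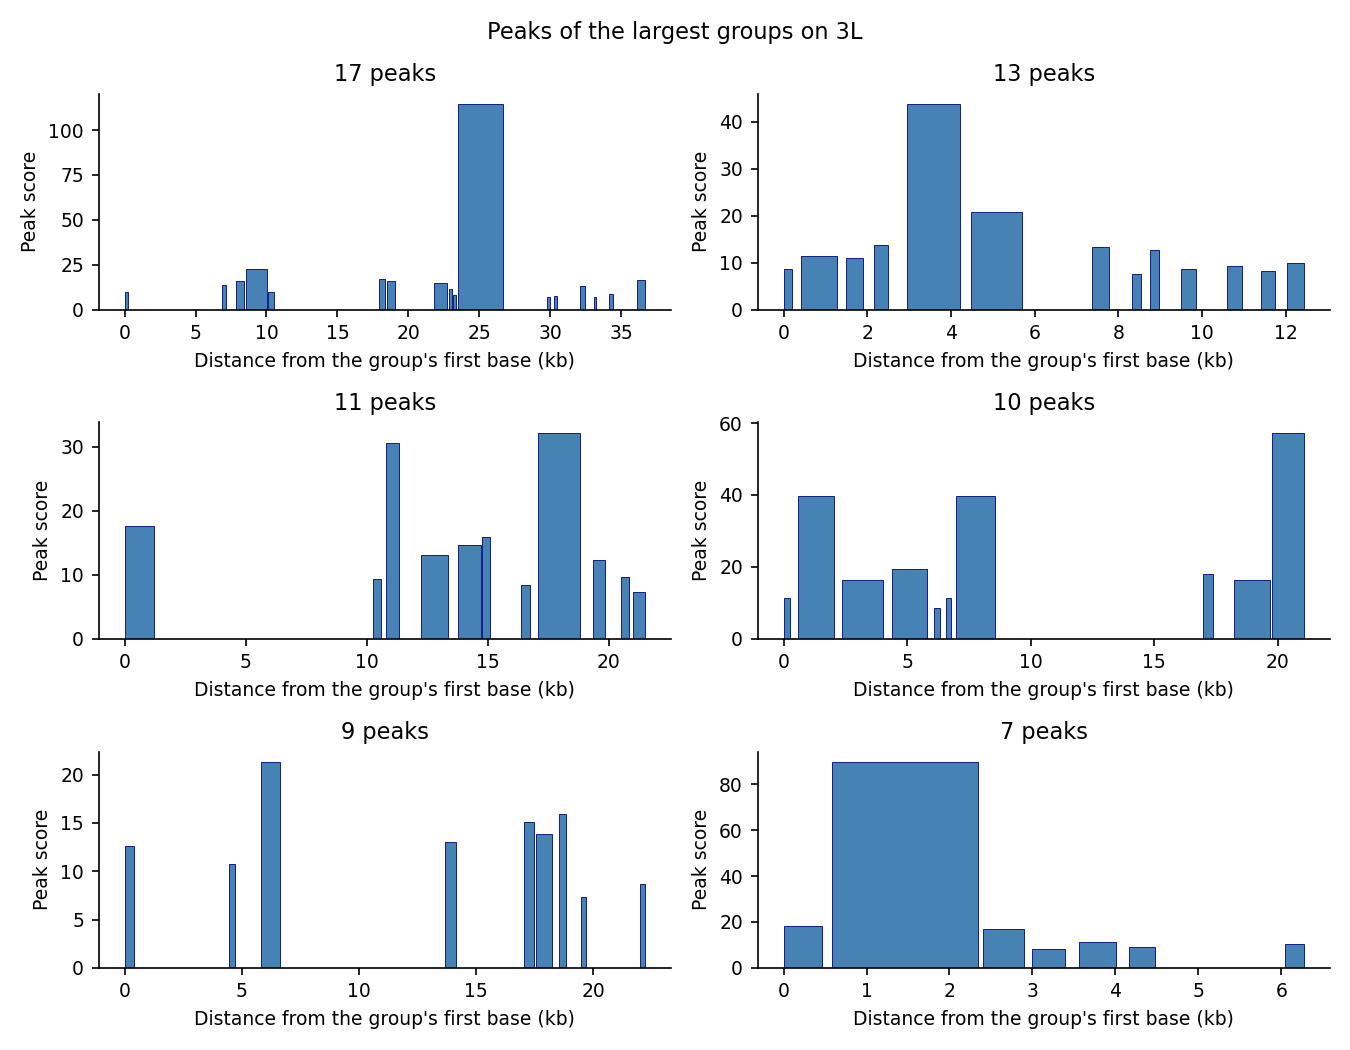
Each panel is 1 group on 3L, with every peak drawn from its first to its last base, in kb from the first base of the group, and its score as the height on a vertical scale of the panel's own. The groups of 17, 13 and 7 peaks each have 1 peak far above the rest, while the group of 11 has a leading pair, at 32.14 and 30.61, and the group of 10 a peak at 57.28 followed by 2 at 39.58; of the 4 groups of 7, the panel shows the one at the lowest position.

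Each 3L peak with a score above 50 was alone at that height in its group. The 38 peaks with scores above 50 lay in 38 different groups, lone peaks included, so no group on 3L held 2 of them. Of these, 11 were lone peaks, which cannot hold a second, and 27 were groups of 2 or more. In the 14 groups that joined 1 of the 20 strongest peaks to other peaks, the second highest score ran from 8 to 22.77, with a median of 14.4. Among the 80 peaks above 25, which lay in 74 groups, 5 groups held more than 1. Those 5 include the groups of 11 and 10 named above and a pair at 6734859 to 6745976, with scores of 74.04 and 47.73. On 2L 1 of 22 groups with a peak above 50 held a further such peak, on 3R 4 of 44 and on X 3 of 27. At the limit of 25 the counts were 6 of 44 on 2L, 16 of 89 on 3R and 9 of 61 on X. The limits of 50 and 25 were set after the scores had been seen, and the difference between arms was not tested.

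The strongest peak of a group was usually also its widest. In the 36 groups of 3 or more peaks this held in 29, and the strongest peak lay inside the group and not at either end in 21. In the 14 groups of 5 or more it lay inside in 12. A larger group has more inner places, and no expectation was computed for these counts. For lone peaks the median score was 16.1, and the strongest peaks of pairs, of groups of 3 or 4 and of groups of 5 or more had medians of 33.0, 38.4 and 45.7. The highest of several scores exceeds a single score by construction, so this order is not a comparison of lone with grouped binding. Taken over every peak, the median score was 17.09 in pairs and 11.87 in groups of 3 or 4. In groups of 5 or more it was 12.64. These medians, against 16.1 for lone peaks, did not rise steadily with group size and were not tested.

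Most of the 3L span lay in long stretches without a peak. Stretches of 200 kb or more between adjacent peaks numbered 37 and summed to 14.1 Mb, 61.6% of the span. Sequence before the first and after the last peak of the arm was left out. The longest of these stretches, 1152 kb, lay between 12843198 and 13995104. It was followed by 834 kb between 21876667 and 22710546, near the centromeric end of the arm, 747 kb between 1803766 and 2550329, and 660 kb between 9848617 and 10508852. The fifth and sixth were nearly alike, 549 kb between 4626299 and 5175631 and 548 kb between 19079492 and 19627677. The last 4 of the 10 longest measured from 470 down to 430 kb and began at 7963936, 7363850, 15095067 and 8517033. The first 2 and the last of these 4 lay close together, between 7363850 and 8946767, parted by a run of 3 peaks and a run of 2. Of the 10 longest, 3 had 1 of the 20 strongest peaks at an edge.

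The long stretches cut the arm into 38 runs of peaks, and most peaks lay in 11 of them. The 11 runs of 10 or more peaks held 254 peaks, 76.7% of the total, in 6.63 Mb, which is 29.0% of the span. All runs leave out the long stretches, 61.6% of the span, by definition. These shares therefore do not show that the 11 runs are denser than the other runs. The fullest run held 53 peaks between 2550329 and 3395194, in 845 kb. It takes in the groups of 17 and 11 peaks and a group of 7. At the other extreme, 8 runs were a single peak each.

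Counted in fixed bins of 1 Mb, peaks were concentrated in 2 places, between 2 and 4 Mb and between 18 and 19 Mb. The bin from 3 to 4 Mb held 38 peaks, that from 18 to 19 Mb held 36 and that from 2 to 3 Mb held 26, against a median of 13 over 23 bins. These 3 bins held 100 peaks, 30.2% of the total. The 23 bins end with the one that holds the last peak, and sequence beyond it was not binned. Of these bins the emptiest was that from 13 to 14 Mb, whose 1 peak was the strongest of the arm. The bin from 22 to 23 Mb held 2 peaks, and those from 7 to 8 and from 8 to 9 Mb held 6 each. Many peaks did not always mean strong peaks. The 36 peaks between 18 and 19 Mb had a median score of 11.3 and 1 above 50. By contrast, 4 of the 8 peaks between 6 and 7 Mb scored above 50. Other bins went the other way: that from 2 to 3 Mb held 3 peaks above 50, up to 169.06. The sparse bins from 7 to 8, from 8 to 9 and from 22 to 23 Mb held none above 50.

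**Figure D4:**
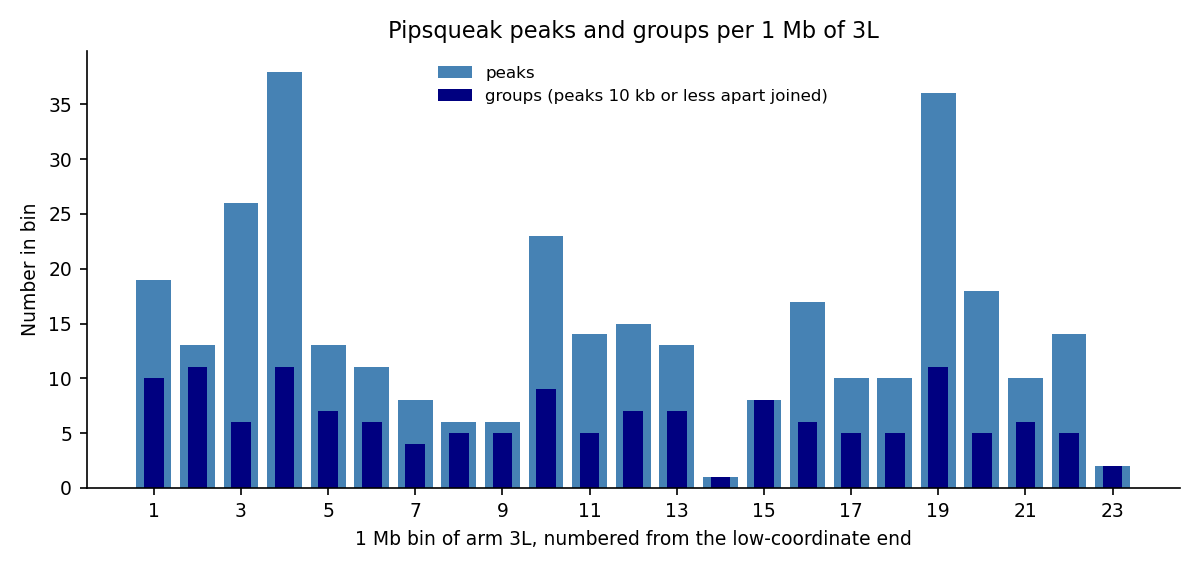
Bars give the number of peaks in each 1 Mb bin of 3L, up to the bin with the last peak. The narrow dark bars give the number of groups, each counted at its middle. Bins 4 and 19 stand out with 38 and 36 peaks but hold 11 groups each, as many as bin 2 with its 13 peaks.

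By the share of peaks above a pooled median, widths and scores on 3L did not differ detectably from those on 2L, 3R or X. This does not cover the upper ends of the arms, which are given below. Median widths were 411 bp on 3L, 413 on 2L, 430 on 3R and 460 on X, and median scores were 13.83, 13.55, 13.83 and 14.65. Each pair of arms was compared by the share of peaks above their pooled median, in 6 two-sided Fisher's exact tests with Benjamini-Hochberg adjustment. None passed, and every adjusted p was 1. For width the share on 3L minus that on the other arm was -0.371 percentage points against 2L (95% Newcombe interval -8.75 to 8.02), -3.09 against 3R (-10.4 to 4.24) and -5.03 against X (-12.7 to 2.74). For score it was 1.09 points against 2L (-7.31 to 9.45), 0.196 against 3R (-7.11 to 7.50) and -2.43 against X (-10.1 to 5.32). A missed threshold does not show that the arms are alike, and differences within these intervals remain possible. The intervals cover counting error only and take peaks as independent, although neighbouring peaks are not.

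The upper ends of the arms are given as values, with no test. Scores above 100 made up 5.14% of the 3L peaks (17 of 331, exact Clopper-Pearson 95% interval 3.02 to 8.10). On 3R they made up 5.45% (21 of 385, 3.41 to 8.22), on 2L 3.52% (8 of 227, 1.53 to 6.83) and on X 1.64% (5 of 305, 0.534 to 3.78). The highest score was 205.68 on 3L, 206.18 on 2L, 179.32 on 3R and 157.15 on X, and the widest peak was 6343 bp on 3L, 5178 on 2L, 4636 on 3R and 4391 on X. Peaks over 2 kb wide made up 4.83% on 3L, against 7.05% on 2L, 6.75% on 3R and 6.56% on X.

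The layout of 3L had values between the lowest and highest of the other 3 arms for each measure given next. Its 14.5 peaks per Mb of span compare with 10.4 on 2L, 13.9 on 3R and 15.0 on X. Peaks in groups of 2 or more made up 76.1% on 3L, 77.1% on 2L, 75.8% on 3R and 76.4% on X. For groups of 5 or more the shares were 34.7% on 3L (exact 95% interval 29.6 to 40.1), 20.3% on 2L (15.2 to 26.1), 41.3% on 3R (36.3 to 46.4) and 34.1% on X (28.8 to 39.7). These intervals take peaks as independent, although all peaks of a group count together, so they understate the uncertainty. The groups of 5 or more numbered 14 on 3L, 7 on 2L, 19 on 3R and 9 on X. The number of peaks per Mb itself affects how many fall within 10 kb, and the difference between arms was not tested. Stretches of 200 kb or more took up 61.6% of the span on 3L, 72.7% on 2L, 68.4% on 3R and 59.4% on X. The longest between adjacent peaks was 1152 kb on 3L, 1160 kb on 2L, 994 kb on 3R and 636 kb on X. The ends of the arms, beyond the first and last peaks, were left out and may hold longer ones.

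**Figure D5:**
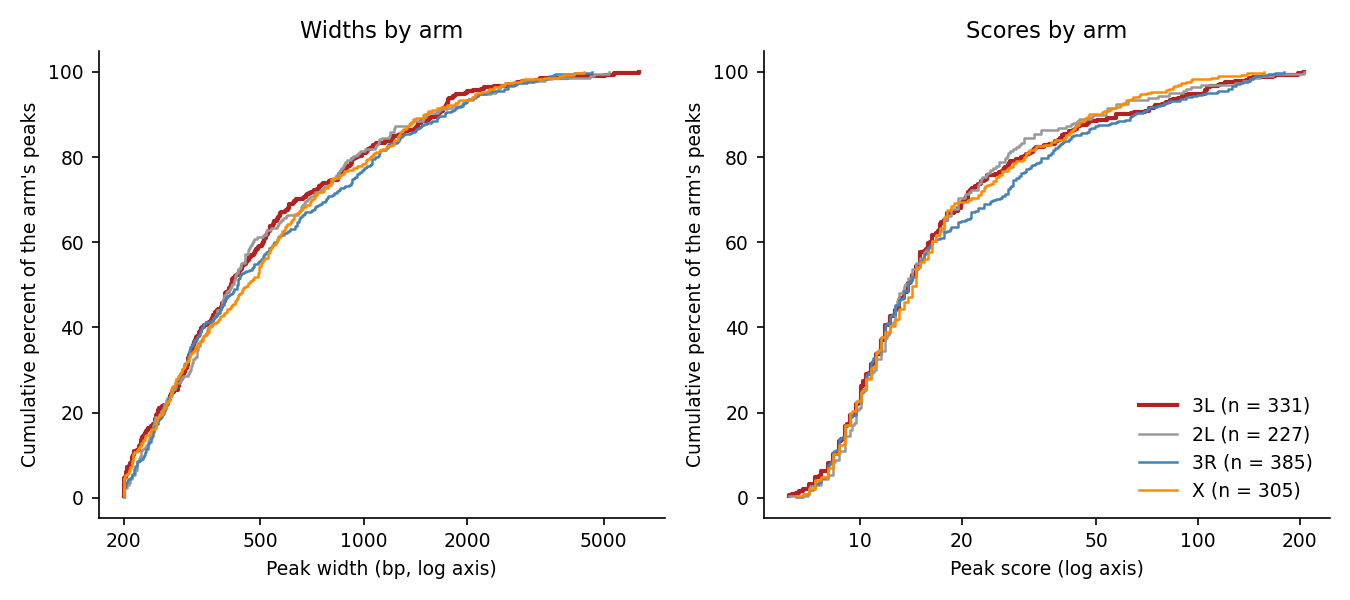
Curves give the cumulative percent of each arm's peaks, by width in bp on the left and by score on the right, both on log axes, for 331 peaks on 3L, 227 on 2L, 385 on 3R and 305 on X. The medians of the 4 arms lie from 411 to 460 bp and from 13.55 to 14.65, and the X curve ends at the lowest score, 157.15.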

How the data were processed

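Chromatin immunoprecipitation with sequencing was done on 2 Pipsqueak and 2 input libraries, grouped by their titles. The deposited file is a peak list on FlyBase release 5, per the file headers, with a first base, a last base and a score per peak. The quantity behind the authors' score is not named in the file, so it served to describe and rank peaks and to set thresholds within the list. The submitters' processing notes name CASAVA 1.7.0.2 and 1.7.0.3, BWA, MACS2 and BDGP5. Settings, threshold, use of the input and pooling of replicates are not given in the sources at hand, and each could change which peaks are listed.

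Analyses used Python 3.11.15 with numpy 2.4.6, pandas 2.3.3, scipy 1.17.1 and statsmodels 0.14.6, and figures matplotlib 3.10.9. Gaps were counted in bases between adjacent peaks, and groups joined peaks 10 kb or less apart. An arm's span ran from its first to its last peak, and sequence beyond these was not counted as a stretch or as empty bins. Named are the 20 highest scores, the 10 widest peaks, the 6 largest groups with those tied, the 10 longest stretches, and the 3 fullest and 3 emptiest bins with ties. The arm, and so its members, the naming rule and the tests were chosen with earlier results of these data known. Joining and the exact test were tested on simulated data. The simulated scores were independent and the planted groups lay far apart. Dependent neighbours and gaps near the joining distance were not covered. Alternatives were other joining distances, joined peaks, shifted bins and a score threshold.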

Additional observations from a re-analysis of the deposited data

How the results depend on the processing

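No paired analysis was possible because the single list does not separate replicates, and no replicate could be left out. Of the comparisons between 3L and another arm, none passed under joining at 1 kb or 10 kb or with scores above 13.83, the median of the 5 large arms (lowest adjusted p 0.150, Fisher's exact test). Their signs were not stable. The width of a joined unit ran from its first to its last base, gaps included, and its score was the highest of its peaks. The joined comparisons are thus of other quantities than the widths and scores of single peaks. For width, the difference in share became 2.62 points (joined at 1 kb) and 0.799 (10 kb) against 2L, 5.86 (10 kb) against 3R, and 6.44 (10 kb) and 1.54 (higher scores) against X. For score it became -3.01 (1 kb), -7.28 (10 kb) and -12.5 (higher scores, 95% interval -22.6 to -2.05, adjusted p = 0.150 by Fisher's exact test) against 3R, and 0.948 (1 kb) and 3.58 (10 kb) against X. The interval given is the only one of the arm comparisons' intervals that excludes 0, and it is not adjusted for the number of tests. The share of 3L peaks in groups of 2 or more was 71.0% at 5 kb, 80.7% at 20 kb and 50.6% among the 164 peaks above 13.83. In groups of 5 or more it was 27.5%, 42.6% and 11.6%. The number of groups was 164 at 5 kb and 132 at 20 kb, within 1.5 times of 147. Among the 164 peaks above 13.83 it was 113, also within that range. That count is of fewer peaks, so it does not show the same groups under another setting. With the higher scores the longest peak-free stretch between adjacent peaks was 1195 kb. Counted as groups, the 3 fullest bins held 22.4%. The cause of these changes was not tested. Without depth, a stretch with no peak cannot be told from one with peaks below the authors' threshold.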

Other observations

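A narrow 3L peak at 21232999 to 21233490 stood apart from the others of its width, and it was singled out after its values were seen. It was 492 bp wide and scored 91.31, rank 19 by score and rank 138 by width, and it was a lone peak. Among the 196 peaks of 500 bp or less on 3L the next highest score was 47.53, at 16043968 to 16044437. Of the 214 such peaks on 3R, 1 scored above 50, at 54.62, and on 2L and X the highest were 48.79 and 41.37. In the other direction, a peak of 1623 bp at 15994647 to 15996269 scored 14.24, the lowest of the 38 peaks of 1500 bp or more. It lies 218 bp before the peak with a score of 108.82.

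The 66 peaks of 3L that border a peak-free stretch of 200 kb or more had a median score of 16.9 and a median width of 471.5 bp. The other 265 had medians of 13.4 and 402 bp. This is a description with no test.

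The list keeps 2 further peaks on 3LHet, the heterochromatic scaffold of the same arm, which were not counted with 3L. They lay at 2205501 to 2205752, with a score of 8.6, and at 2208035 to 2208268, with a score of 11.13, and 2282 bp parted them.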
